A study of Mus musculus with 9 samples.

Results

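The genes described here encode the hypoxia-inducible factors (HIFs) and the enzymes through which cells sense oxygen and set HIF activity. They are 10 of the 34866 genes in each deposited table and were taken by name. The list holds the alpha subunits Hif1a, Epas1 and Hif3a, their partner Arnt, the prolyl hydroxylases Egln1, Egln2 and Egln3, the asparaginyl hydroxylase Hif1an, and the ubiquitin ligase genes Vhl and Siah2. Each symbol matched 1 Ensembl identifier, and all 10 genes passed the filter on low values in every comparison. Expression was measured by sequencing of mRNA in primary macrophages of the mouse, grown in vitro in alpha-MEM with serum and L929-conditioned medium, in 9 libraries that form 3 groups of 3 biological replicates. Macrophages of the standard oxygen group were kept in standard oxygen over 7 days, those of the acute hypoxia group had standard oxygen and then 3 hours at 1% oxygen, and those of the chronic hypoxia group had 1% oxygen throughout 7 days. The medium was shared by all groups, and the labels give no strain, age, sex or tissue of origin. Each level below is in TPM, which scales the reads of a gene by its length and by the total of its library.

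HIF alpha proteins are made all the time, and in oxygen the EGLN enzymes hydroxylate them on prolines, which lets the VHL ubiquitin ligase bind the protein and send it to the proteasome. HIF1AN hydroxylates an asparagine of the alpha subunit and so keeps coactivators away, and SIAH2 marks EGLN proteins for degradation. When oxygen is scarce the alpha subunit persists, pairs with ARNT and binds hypoxia response elements in target genes, among which EGLN3 and EGLN1 are well known, and in macrophages this program acts on glycolysis and inflammatory genes. All values here are of mRNA, so the protein steps of this pathway were not measured.

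The core of the hypoxia response element is written ACGTG or GCGTG, and it was searched on both strands of the 250 bases upstream of each RefSeq start site (RefSeq, GRCm38.p6). Of the 10 genes, 8 had an entry, and Epas1 and Siah2 had none. ACGTG was found in 4 of the 8 (Egln1, Egln2, Egln3 and Hif1a), while 18.5% of 27025 genes hold it. GCGTG was found in 4 of the 8 (Arnt, Hif3a, Egln1 and Egln2), while 30.9% of 27025 genes hold it. Vhl and Hif1an held neither core in this window. Among 19 classic HIF target genes with an entry, 14 held ACGTG. A match is a description of letters and not a bound site. The stretches with ACGTG are shown for all 4 genes that hold it, whatever their change in level. Each line is read 5′ to 3′ on the strand of the gene, and capitals mark the core, which in the first Hif1a stretch is the palindrome CACGTG and so holds ACGTG on both strands.
Egln3, chr12:54203875-54204124, minus strand: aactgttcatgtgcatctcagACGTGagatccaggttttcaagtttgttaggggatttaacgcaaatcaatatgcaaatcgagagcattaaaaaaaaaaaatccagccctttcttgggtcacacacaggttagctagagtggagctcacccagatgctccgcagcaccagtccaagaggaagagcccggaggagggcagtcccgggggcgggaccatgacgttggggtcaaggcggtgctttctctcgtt
Egln1, chr8:124949306-124949334, minus strand: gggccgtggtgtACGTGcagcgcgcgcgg
Egln2, chr7:27166834-27166862, minus strand: agcctcctgtcaACGTGcggttcgcgcac
Hif1a, first stretch, chr12:73907720-73907749, plus strand: cacacagacaagCACGTGagcggggcagct
Hif1a, second stretch, chr12:73907785-73907813, plus strand: tggctgagagcaACGTGggctggggtggg
The core began 229 bases upstream of the start site in Egln3, 68 in Egln1 and 48 in Egln2. Of the 29 bases shown for Egln1, 19 lie in an exon of the GENCODE annotation, whose gene model begins farther upstream than the RefSeq start. The other 4 stretches lie outside the GENCODE exons of their genes. Both Hif1a stretches lie within its GENCODE gene model, which begins at position 73901375, farther upstream than the RefSeq start.

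The libraries were not evenly spaced within a group, which touches every result. Samples share digits in their descriptions across groups, whose meaning is not given in the sources used here, and these digits define 3 sample codes (X, Y and Z) with 1 library of each group per code. Within a group, libraries X and Y differed by a median of 0.125 to 0.141 in log2(TPM + 1) over 11065 genes, and library Z differed from them by 0.238 to 0.306. The labels do not say whether X and Y came from separate animals or cultures, so p-values measure the spread between these libraries. Differences over 2-fold between X and Y were counted for 208 to 222 genes in a group, and between Z and either of them for 765 to 894. Mertk, a receptor for dying cells, reached 2.21 to 3.37 TPM in the Z library of each group and 21.8 to 33.3 TPM in the other 6. The macrophage label was checked against markers, and all 8 macrophage markers had a mean of at least 1 TPM, with a summed level of 5.66e+04 to 7.48e+04 TPM per library. Markers of fibroblasts, T cells and dendritic cells summed to at most 1.27 TPM in any library, and those of neutrophils to at most 4.76 TPM. TPM keeps no depth, so counting error is unknown and the SD over 3 libraries is the error given. In bulk libraries, fewer cells of a type and less RNA per cell cannot be told apart.

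Egln3 and Egln1 had the highest log2 fold changes of the 10 genes against standard oxygen, in acute and in chronic hypoxia. Egln3 went from 16.5 ± 12.3 TPM in standard oxygen to 151 ± 69.4 in acute and 538 ± 23.8 in chronic hypoxia, and Egln1 from 30.3 ± 2.49 to 86.5 ± 13.8 and 90.6 ± 8.0 (SD, n = 3 each). Vhl was higher in both hypoxia groups and highest in acute hypoxia, and Hif1a had ratios of means of 1.29 and 1.35. Epas1, Arnt, Egln2, Hif1an and Siah2 did not pass the test in any comparison in either fit described next. Differences were tested with limma on log2(TPM + 1), two-sided, for genes with a mean of at least 1 TPM over the 6 libraries compared. A gene was called at a Benjamini-Hochberg adjusted p under 0.05 over all genes tested. Deviations from the group means went together within sample codes. A fit with the sample code as a block (code-blocked) is therefore given beside the one with none (unblocked), whose estimates are equal. Each SE and 95% interval in the text is that of the unblocked fit unless marked code-blocked. The comparisons of acute and of chronic hypoxia with standard oxygen share the 3 standard oxygen libraries, so their values are set side by side and are not independent.

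**Figure D1:**
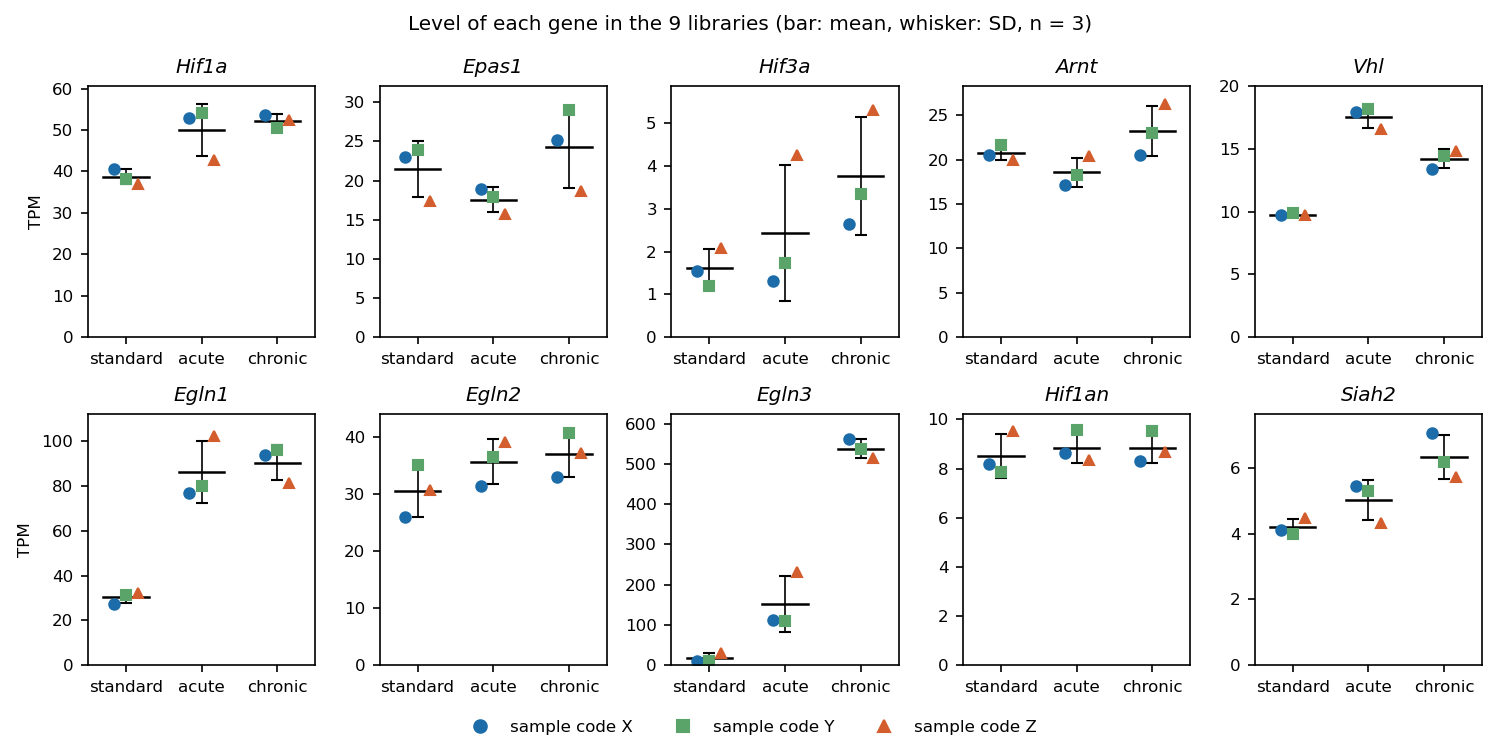
TPM (linear axis from 0, 1 scale per panel) of the 10 genes in standard oxygen, acute hypoxia and chronic hypoxia. Points are libraries, marked by sample code; the long bar is the mean and the whisker the SD over 3 libraries. Egln3 and Egln1 leave their standard oxygen range in all hypoxia libraries, while the groups of Egln2, Hif1an and Epas1 overlap.

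In acute hypoxia against standard oxygen, unblocked limma called 0 of the 10 genes and 0.0273% of 10987 genes tested, and 4 of the 10 had an unadjusted p under 0.05, as had 7.14% of all genes tested. The code-blocked fit called 3 of the 10 (Egln3, Egln1 and Vhl, all higher) and 0.71% of all genes tested. In 4 of the 10 genes (Hif1a, Vhl, Egln1 and Egln3) all acute libraries lay above all standard oxygen libraries, and 12.5% of all genes tested had groups that did not overlap in either direction. In chronic hypoxia against standard oxygen, unblocked limma called 2 of the 10 (Egln3 and Egln1, both higher) and 2.69% of 11067 genes. The code-blocked fit called 5 of the 10 (Egln3, Egln1, Hif3a, Vhl and Hif1a, all higher) and 18.4% of all genes. Groups did not overlap for 6 of the 10 (Hif1a, Hif3a, Vhl, Egln1, Egln3 and Siah2, all higher) and for 29.6% of all genes. In chronic against acute hypoxia, unblocked limma called 0 of the 10 and 0.695% of 11087 genes. At an unadjusted p under 0.05 there were 3 of the 10 and 20.8% of all genes. The code-blocked fit called 1 of the 10 (Egln3, higher) and 15.5% of all genes, so this count is not above the background share. Groups did not overlap for Arnt, Egln3 and Siah2, which were higher in chronic hypoxia, and for Vhl, which was lower, against 27.8% of all genes. The median log2 fold change of the 10 genes was 0.27, 0.46 and 0.18 in the 3 comparisons in this order, and that of all genes tested was 0.01, 0.16 and 0.14. Median-of-ratios rescaling of the libraries took the last 2 of these medians of all genes to 0.00, and changes of that size in chronic hypoxia cannot be told apart from the shift of all genes.

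**Figure D2:**
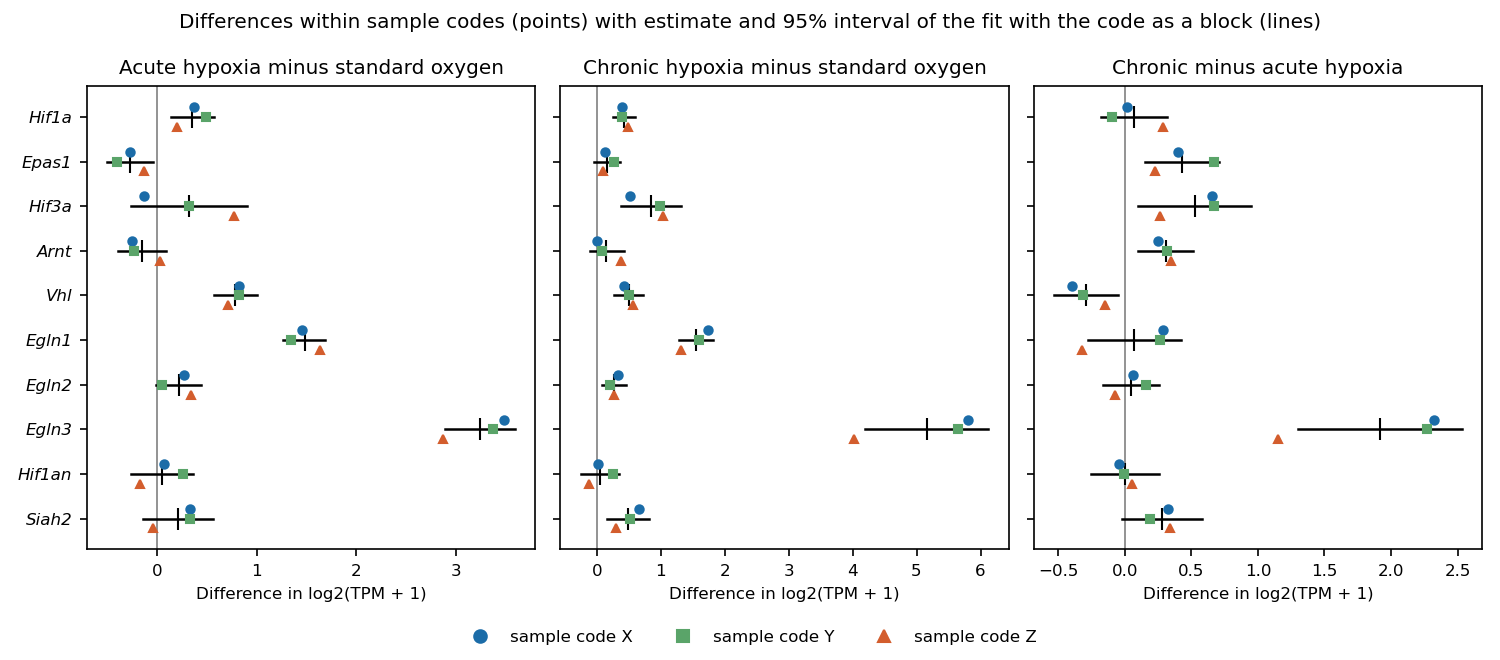
Differences in log2(TPM + 1) for the 10 genes in the 3 comparisons, 1 panel each. Points are differences between libraries of the same sample code; the horizontal line is the 95% interval and the tick the estimate of the code-blocked limma fit. Egln3 lies farthest to the right in each panel, and its code Z point lies lowest of its 3 points each time.

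Hif1a (chr12:73901375-73947530, plus strand, GRCm38, as are the positions that follow) encodes the alpha subunit that drives the acute response in most cells. It was at 40.6, 38.3 and 37.1 TPM in standard oxygen, at 53.0, 54.1 and 42.8 in acute hypoxia and at 53.7, 50.5 and 52.4 in chronic hypoxia (codes X, Y and Z in this order, here and below). Every hypoxia library lay above every standard oxygen library, and the acute and chronic groups overlapped. Acute hypoxia differed from standard oxygen by 0.35 ± 0.117 (log2 fold change, SE), and its Benjamini-Hochberg adjusted p in limma was 0.558 unblocked and 0.182 code-blocked. Chronic hypoxia differed by 0.42 ± 0.0905, with an adjusted p of 0.0658 unblocked and 0.0231 code-blocked in limma, so it passed when code-blocked. Rescaling together with the code block gave 0.25 and an adjusted p of 0.0857 in limma, which ended that call. Hif1a shares 1.66% of its 75-base stretches with the overlapping gene Gm49321, and 5.6% of its exonic bases lie opposite the antisense gene Gm15283, whose reads cannot be told apart without strand. Between chronic and acute hypoxia the estimate was 0.07 (95% interval -0.21 to 0.35), and it became -0.08 after rescaling.

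Epas1 (chr17:86753700-86833410, plus strand) encodes HIF-2 alpha, the second oxygen-regulated alpha subunit. Its levels were 23.1, 23.9 and 17.4 TPM in standard oxygen, 18.9, 17.9 and 15.8 in acute hypoxia, and 25.2, 29.1 and 18.7 in chronic hypoxia. Library Z was the lowest of its group in all 3 groups, and the groups overlapped. Within each code the acute library was the lowest of the 3, with acute minus standard differences of -0.271, -0.398 and -0.132 in log2(TPM + 1). The estimate for acute hypoxia was -0.27 ± 0.149 (SE), and its adjusted p in limma was 0.86 unblocked and 0.3 code-blocked. Its 95% interval was -0.62 to 0.09 unblocked and -0.50 to -0.04 code-blocked. The chronic minus acute estimate was 0.43 ± 0.175, with an adjusted p of 0.231 unblocked and 0.0588 code-blocked in limma. Without the code Z libraries that difference was 0.53, with a limma adjusted p of 0.0327. Only X and Y remain in each group there, and 16.3% of all genes tested were called. Rescaling of all libraries took the chronic minus acute estimate to 0.28 (0.545 in limma). Against standard oxygen, chronic hypoxia gave 0.16 (95% interval -0.31 to 0.64) and -0.01 after rescaling.

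Hif3a (chr7:17031507-17062427, minus strand) encodes an alpha subunit with splice forms that can oppose the other HIFs, and it was the lowest of the 10 genes in every group. It was at 1.54, 1.19 and 2.08 TPM in standard oxygen, at 1.31, 1.73 and 4.25 in acute hypoxia and at 2.64, 3.34 and 5.31 in chronic hypoxia. Library Z was the highest of its group each time, and all chronic libraries lay above all standard oxygen libraries. The chronic minus standard estimate was 0.85 ± 0.266 (log2 fold change, SE), and its Benjamini-Hochberg adjusted p in limma was 0.133 unblocked and 0.0387 code-blocked. That call ended with rescaling added (0.72, adjusted p 0.0668 in limma), and without the code Z libraries the difference was 0.75 (0.0562 in limma). In acute hypoxia the groups overlapped, and the estimate of 0.32 became -0.04 without the acute library of code Z (replicate 3). At such levels log2(TPM + 1) understates a fold change, and the ratio of means of chronic to standard oxygen was 2.35.

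Hif1a held most of the summed TPM of the 3 alpha subunit genes, with a share of 62.7 ± 2.58% in standard oxygen, 71.3 ± 2.82% after acute hypoxia and 65.1 ± 3.90% after chronic hypoxia (SD, n = 3). Epas1 held 34.6 ± 3.50%, 25.1 ± 0.80% and 30.2 ± 5.40% in the same order. Hif3a held 2.64 ± 0.932%, 3.63 ± 2.73% and 4.75 ± 1.96%. The share of Hif1a in each acute library lay above its share in every standard oxygen library. The ratio of Hif1a to Epas1 TPM was 1.76, 1.60 and 2.13 in standard oxygen, 2.80, 3.02 and 2.71 in acute hypoxia, and 2.13, 1.74 and 2.81 in chronic hypoxia. Acute libraries thus had the highest ratio in codes X and Y, and in code Z the chronic library exceeded the acute one.

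Arnt (chr3:95434388-95497240, plus strand) encodes the beta subunit with which every HIF alpha protein pairs, and its protein is not degraded through oxygen. It was at 20.6, 21.6 and 20.01 TPM in standard oxygen, 17.1, 18.2 and 20.4 in acute hypoxia and 20.6, 23.0 and 26.2 in chronic hypoxia. All chronic libraries were above all acute libraries, if narrowly for X, while both hypoxia groups overlapped standard oxygen. The chronic minus acute estimate was 0.31 ± 0.128 (log2 fold change, SE), and its adjusted p in limma was 0.242 unblocked and 0.0627 code-blocked. That estimate was 0.16 after rescaling. Against standard oxygen the estimates were -0.15 (95% interval -0.40 to 0.09) in acute and 0.15 (-0.13 to 0.44) in chronic hypoxia, and the latter became -0.02 after rescaling.

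Egln3 (chr12:54178981-54203860, minus strand) encodes PHD3, the prolyl hydroxylase best known as a HIF target. It was at 9.08, 9.75 and 30.7 TPM in standard oxygen, at 112, 110 and 231 in acute hypoxia and at 562, 537 and 514 in chronic hypoxia. No groups overlapped: each acute library lay above each standard oxygen library, and each chronic library above each acute one. In standard oxygen and in acute hypoxia library Z was far above X and Y, and in chronic hypoxia it was the lowest. The ratio of means was 9.14 for acute and 32.6 for chronic hypoxia against standard oxygen, and 3.56 for chronic against acute hypoxia.

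For acute hypoxia the log2 fold change of Egln3 was 3.24 ± 0.507 (SE), and its Benjamini-Hochberg adjusted p in limma was 0.125 unblocked and 0.00814 code-blocked. For chronic hypoxia it was 5.16 ± 0.427, with an adjusted p of 0.0077 unblocked and 0.00704 code-blocked in limma. Chronic exceeded acute hypoxia by 1.92 ± 0.287, with an adjusted p of 0.0504 unblocked and 0.0141 code-blocked in limma, so Egln3 was higher after 7 days than after 3 hours at 1% oxygen in the code-blocked fit. Within codes the chronic minus standard difference was 5.80 in X, 5.65 in Y and 4.02 in Z, on the log2(TPM + 1) scale. Without the code Z libraries the 3 differences were 3.43, 5.72 and 2.30, with limma adjusted p-values of 0.0011, 9.84e-05 and 0.000757. That setting leaves only X and Y in each group, and it called 2.95, 21.1 and 16.3% of all genes tested. By log2 fold change Egln3 ranked 4 of 10987 genes for acute and 2 of 11067 for chronic hypoxia relative to standard oxygen, and 34 of 11087 in chronic against acute hypoxia.

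Egln1 (chr8:124908587-124949324, minus strand) encodes PHD2, the main HIF prolyl hydroxylase in most cells. Its level was 27.5, 31.1 and 32.2 TPM in standard oxygen, 76.9, 80.2 and 102 in acute hypoxia, and 93.9, 96.4 and 81.4 in chronic hypoxia. Every hypoxia library stood above every standard oxygen library, and the acute and chronic groups overlapped. The log2 fold change was 1.48 ± 0.136 (SE) in acute hypoxia, and its Benjamini-Hochberg adjusted p in limma was 0.0552 unblocked and 0.00995 code-blocked. In chronic hypoxia it was 1.55 ± 0.114, with an adjusted p of 0.0077 unblocked and 0.00689 code-blocked in limma. Chronic against acute hypoxia gave 0.07 (95% interval -0.26 to 0.41), so a further change of the size seen for Egln3 lies outside the interval. That estimate became -0.08 after rescaling and 0.27 without the code Z libraries (limma adjusted p 0.0628). In codes X and Y the chronic library was above the acute one, by 0.284 and 0.263 in log2(TPM + 1), and in code Z the difference was -0.325.

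The calls of Egln1 and Egln3 in chronic hypoxia against standard oxygen depended on how samples were grouped. Both had an adjusted p of 0.0882 in limma with the replicate number of the titles as a block, and of 0.0654 without the chronic library of code Y (replicate 2). With libraries X and Y averaged to 1 sample in each group, the adjusted p in limma was 0.317 for both, at estimates of 1.49 for Egln1 and 4.87 for Egln3. In that setting, which leaves 2 samples a group, none of the 10 genes was called in any of the 3 comparisons. The adjusted p in limma was 1 for Egln3, Egln1 and Vhl in acute hypoxia and 0.587 for Egln3 between chronic and acute hypoxia. That setting has no block, and these differences were not called in the unblocked fit either. It called 0, 1 and 0 of all genes tested in the 3 comparisons, so it cannot show whether the code-blocked calls hold.

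Egln2 (chr7:27158658-27166802, minus strand) encodes PHD1, the prolyl hydroxylase that is not known as a hypoxia-induced gene. It was at 26.0, 35.1 and 30.8 TPM in standard oxygen, at 31.5, 36.5 and 39.2 in acute hypoxia and at 33.0, 40.8 and 37.2 in chronic hypoxia. The groups overlapped, yet within each code both hypoxia libraries were above the standard oxygen library, by 0.052 to 0.339 in log2(TPM + 1). The estimate was 0.22 (95% interval -0.12 to 0.56) in acute and 0.27 (-0.08 to 0.61) in chronic hypoxia. The code-blocked 95% intervals were -0.01 to 0.44 and 0.08 to 0.45. The limma adjusted p-values were 0.921 and 0.321 (unblocked), and 0.359 and 0.0613 (code-blocked). With the code block and all 9 libraries in 1 fit, the chronic adjusted p in limma was 0.0435. That setting called 26.3% of all genes tested. Rescaling took the chronic estimate to 0.09, and chronic against acute hypoxia went from 0.05 to -0.10.

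Egln3 went from the smallest to the largest share of the prolyl hydroxylase family. Egln1 and Egln2 held 39.7 ± 4.86% and 40.2 ± 6.75% of the 3 genes' summed TPM in standard oxygen, and Egln3 held 20 ± 11.1% (SD, n = 3). In acute hypoxia the shares were 32.6 ± 4.42%, 13.6 ± 2.86% and 53.8 ± 7.21%, and in chronic hypoxia 13.6 ± 0.70%, 5.57 ± 0.68% and 80.8 ± 1.00%, in the order Egln1, Egln2 and Egln3. The summed level of the 3 genes was 77.4 ± 15.7 TPM in standard oxygen, 273 ± 86.2 in acute and 665 ± 29.0 in chronic hypoxia. The ratio of Egln3 to Egln1 TPM was 0.331, 0.314 and 0.953 in standard oxygen, 1.45, 1.38 and 2.26 in acute hypoxia and 5.98, 5.58 and 6.31 in chronic hypoxia. Egln3 was thus the lowest of the 3 in each standard oxygen library and the highest in each hypoxia library.

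**Figure D3:**
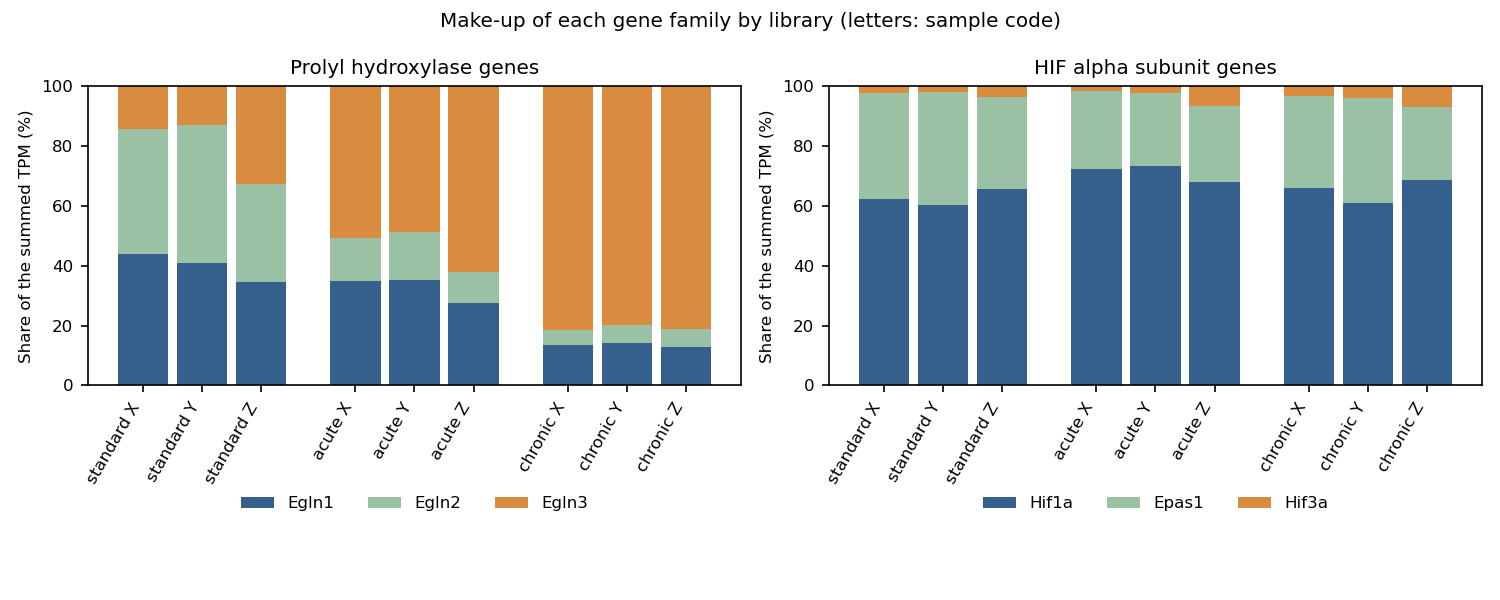
Share of the summed TPM (%) held by Egln1, Egln2 and Egln3 (left) and by Hif1a, Epas1 and Hif3a (right), 1 stacked bar per library, named by group and sample code. The Egln3 share goes from 12.8 to 32.8% in standard oxygen libraries to 79.7 to 81.6% in chronic hypoxia libraries, and Hif1a holds 60.4 to 73.4% of the alpha subunit sum.

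Hif1an (chr19:44562850-44576274, plus strand) encodes FIH, the asparaginyl hydroxylase. It was at 8.17, 7.85 and 9.54 TPM in standard oxygen, at 8.62, 9.56 and 8.35 in acute hypoxia and at 8.32, 9.53 and 8.69 in chronic hypoxia. The groups overlapped, and the order of the codes differed between standard oxygen and hypoxia. The estimates were 0.05 (95% interval -0.25 to 0.34) in acute hypoxia, 0.05 (-0.26 to 0.36) in chronic hypoxia, and 0.00 (-0.28 to 0.28) between the hypoxia groups. The first 2 intervals leave out changes of the size measured for Egln1 and Egln3 against standard oxygen, and they include those measured for Egln2. The chronic estimate became -0.11 after rescaling.

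Vhl (chr6:113623959-113631633, plus strand) encodes the subunit of the ubiquitin ligase that recognises hydroxylated HIF alpha. It was at 9.72, 9.88 and 9.72 TPM in standard oxygen, at 17.9, 18.2 and 16.6 in acute hypoxia and at 13.4, 14.5 and 14.8 in chronic hypoxia. No groups overlapped, and acute hypoxia was the highest in every code. The log2 fold change in acute hypoxia was 0.78 ± 0.0955 (SE), and its Benjamini-Hochberg adjusted p in limma was 0.0658 unblocked and 0.0439 code-blocked. In chronic hypoxia it was 0.50 ± 0.104, with an adjusted p of 0.0633 unblocked and 0.0258 code-blocked in limma. Rescaling with the code block took these p-values in limma to 0.0506 (0.77) and 0.0757 (0.33), which ended both calls. From acute to chronic hypoxia the estimate was -0.29 ± 0.102, with an adjusted p of 0.191 unblocked and 0.0989 code-blocked in limma, and -0.43 after rescaling with the code block (0.0502). The 4 other subunits of this ligase that were listed (Cul2, Elob, Eloc and Rbx1) were all tested and 0 were called in any comparison, unblocked or code-blocked. At an unadjusted p under 0.05 in the unblocked fit, 0 of the 4 passed in acute hypoxia, 1 in chronic hypoxia and 0 between the hypoxia groups. The shares of all genes tested were 7.14, 22.9 and 20.8% in the same order.

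Siah2 (chr3:58674938-58692400, minus strand) encodes the ubiquitin ligase that acts on EGLN proteins. It was at 4.13, 4.01 and 4.49 TPM in standard oxygen, at 5.46, 5.30 and 4.34 in acute hypoxia and at 7.08, 6.20 and 5.75 in chronic hypoxia. All chronic libraries lay above all libraries of both other groups, and acute hypoxia overlapped standard oxygen through code Z. The chronic minus standard estimate was 0.49 ± 0.14 (log2 fold change, SE), and its Benjamini-Hochberg adjusted p in limma was 0.114 unblocked and 0.0589 code-blocked. Without the code Z libraries the difference was 0.59, with an adjusted p of 0.0393 in limma. That setting leaves only X and Y in each group, and it called 21.1% of all genes tested. The acute estimate was 0.21 (95% interval -0.13 to 0.55).

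**Figure D4:**
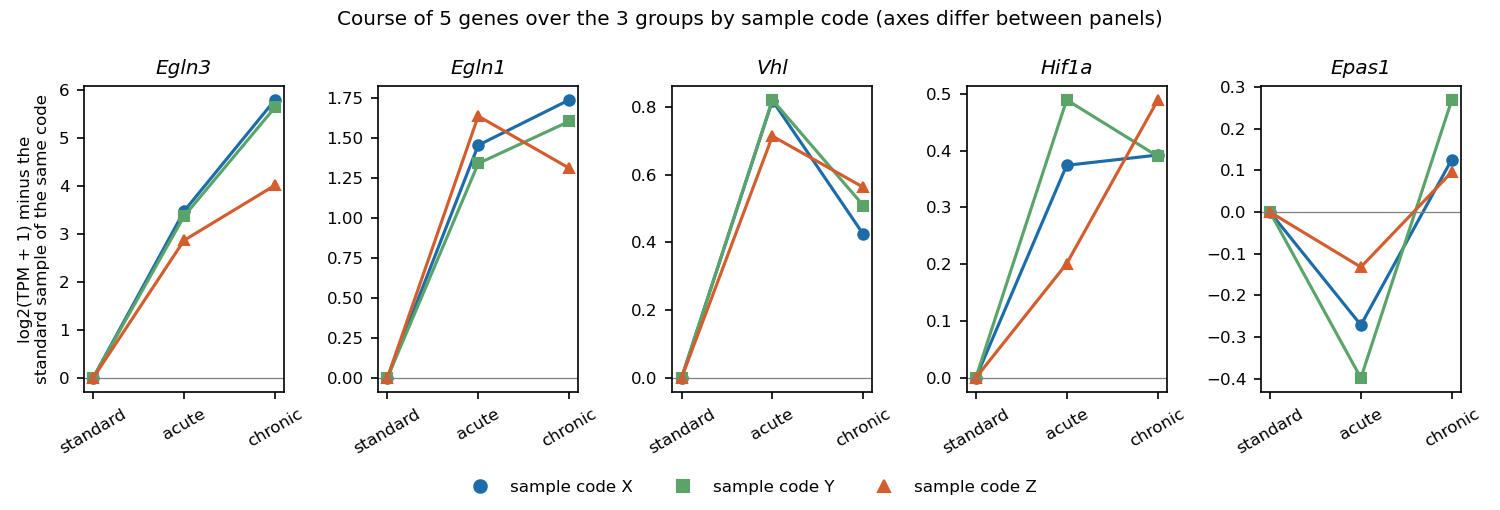
Difference in log2(TPM + 1) from the standard oxygen library of the same sample code (y axis, scale differs between panels) for Egln3, Egln1, Vhl, Hif1a and Epas1 across standard oxygen, acute and chronic hypoxia. Lines join libraries of 1 code and are not a time series of the same cells; Vhl is highest in acute hypoxia in all 3 codes, Epas1 is lowest there, and Egln1 goes up from acute to chronic hypoxia in codes X and Y and down in code Z.

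Since TPM is corrected for length, the genes' levels could also be ordered within a group. Hif1a was highest in standard oxygen and lay above Egln2 and Egln1, whose ranges overlapped. Epas1, Arnt and Egln3 came next with overlapping ranges, and that of Egln3 (9.08 to 30.7 TPM) also reached down to Vhl. Vhl, Hif1an, Siah2 and Hif3a followed without overlap between neighbours. In both hypoxia groups the order from the top was Egln3, Egln1, Hif1a and Egln2, with no overlap between neighbours. In acute hypoxia Arnt, Vhl and Epas1 had overlapping ranges of 15.8 to 20.4 TPM. Epas1 and Arnt overlapped in chronic hypoxia and lay above Vhl. Hif1an, Siah2 and Hif3a held the last 3 places in all 3 groups.

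The genes most like Egln1 and Egln3 in pattern were taken by Pearson's r of log2(TPM + 1) over the 9 libraries, among 8688 genes. For Egln1 they were Ankrd37 (r = 0.986), an ankyrin repeat gene and HIF target, Cdkn1b (0.986), a cell cycle inhibitor, and Bnip3 (0.982), which acts in mitophagy. Bnip3 was at 74.3 TPM in standard oxygen, 340 in acute and 485 in chronic hypoxia (means), and 15.3% of its 75-base stretches also occur in other genes. For Egln3 they were Pgam1 (0.987) and Tpi1 (0.985), both glycolytic enzymes, and Prelid2 (0.985), a mitochondrial lipid transfer gene. Prelid2 was at 5.76, 15.7 and 30.7 TPM in the 3 groups, and Pgam1 is uncertain, since 40.6% of its stretches occur in other genes. After centring on the sample code these 6 r were 0.984 to 0.995. The points share their groups and codes, so r is a description and carries no p.

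Genes that HIF is known to switch on gave the readout of the pathway, with 22 classic targets that do not include the 10 genes. In acute hypoxia limma called 2 of 22 higher when unblocked and 13 of 22 when code-blocked, and the median log2 fold change was 1.11. Of all genes tested, 0.0273% and 0.71% were called in these fits in either direction, and their median was 0.01. Hilpda, a lipid droplet gene, was at 82.3, 79.9 and 85.4 TPM in standard oxygen, 368, 404 and 517 in acute hypoxia and 136, 123 and 125 in chronic hypoxia. Its groups did not overlap, with acute hypoxia the highest, the order also seen for Vhl. In chronic hypoxia against standard oxygen 13 were called higher and 1 lower by unblocked limma, and 19 higher and 1 lower by the code-blocked fit, with a median of 1.04. For all genes tested the shares called were 2.69% and 18.4%, and the median was 0.16. The gene that fell was Pfkfb3, an enzyme that promotes glycolysis, at 51.9, 53.1 and 42.5 TPM in standard oxygen, 32.6, 35.5 and 40.9 in acute and 23.7, 24.8 and 25.4 in chronic hypoxia (log2 fold change -0.96, unblocked limma adjusted p 0.0203). From acute to chronic hypoxia 1 target was called higher (Pdk1, 0.68, limma adjusted p 0.0448) and 1 lower (Hilpda, -1.73, limma adjusted p 0.0194), and the code-blocked fit called 4 higher and 5 lower. The shares of all genes called by the 2 fits were 0.695% and 15.5%. Rescaling ended the unblocked call of Pdk1 (0.53, limma adjusted p 0.0773) and left 0 higher and 2 lower (Pfkfb3 and Hilpda). Without rescaling the median of the 22 targets from acute to chronic hypoxia was 0.00, below the 0.14 of all genes. With rescaling these medians were -0.15 and 0.00. The list was chosen for being induced by HIF, so its direction is no independent evidence.

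Of 16 other listed genes that act on HIF alpha stability, 0 were called in acute hypoxia in either fit, with 0 at an unadjusted p under 0.05 when unblocked. Of all genes tested, 7.14% were under 0.05 there. In chronic hypoxia against standard oxygen Plk3, a stress kinase, fell by 1.31 on the log2 scale (unblocked limma adjusted p 0.0077). It was at 23.8, 24.1 and 23.4 TPM in standard oxygen, at 20.6, 20.7 and 13.7 in acute hypoxia and at 9.67, 9.49 and 7.88 in chronic hypoxia. The 3 groups of Plk3 did not overlap, and code Z was lowest in each. In the code-blocked fit Mdm2, the ligase of p53, also fell (-0.64, limma adjusted p 0.0154) and Rack1, a scaffold protein, rose (0.36, limma adjusted p 0.0499). That fit thus called 3 of the 16 genes, beside 18.4% of all genes tested. These 3 were also called in chronic against acute hypoxia by the code-blocked fit, at -0.93, -0.57 and 0.40 in the order Plk3, Mdm2 and Rack1. There it called 15.5% of all genes tested. With rescaling added the Rack1 calls ended, with adjusted p-values of 0.231 and 0.109 in limma.

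Of 10 coactivators and competitors of HIF, 9 were tested and 0 were called by unblocked limma in the 3 comparisons, with 1, 5 and 1 at an unadjusted p under 0.05, beside 7.14, 22.9 and 20.8% of all genes tested. In the code-blocked fit Pkm, a glycolytic enzyme also described as a HIF coactivator, rose in chronic hypoxia against standard oxygen (0.50, limma adjusted p 0.0238). That fit called 1 of the 9 there, beside 18.4% of all genes tested, so this count is not above the background share. The Pkm call ended with rescaling added (0.0685 in limma), and 15.6% of the stretches of Pkm occur in other genes. Of 12 other genes of the bHLH-PAS family, to which the HIF subunits belong, 5 passed the filter and 0 were called in any comparison, unblocked or code-blocked. In the unblocked fit 0 of the 5 had an unadjusted p under 0.05 in any comparison, beside 7.14, 22.9 and 20.8% of all genes tested. In the code-blocked fit 0, 0 and 2 of the 5 did in the 3 comparisons, beside 14.2, 38.4 and 35.7% of all genes tested. Of 5 other oxygen-dependent dioxygenases, 4 were tested and 0 called by unblocked limma. There 1, 0 and 2 had an unadjusted p under 0.05 in acute, chronic, and chronic against acute hypoxia, beside 7.14, 22.9 and 20.8% of all genes. In the code-blocked fit Ado and Ogfod3 were higher in chronic than in acute hypoxia (0.56 and 0.49, limma adjusted p 0.028 and 0.0451). That fit thus called 2 of the 4 there, beside 15.5% of all genes tested. Both calls ended with rescaling added (0.0623 and 0.119 in limma), and Ogfod3 shares 12.1% of its stretches with another gene. Ado, a thiol dioxygenase that senses oxygen through protein cysteines, had means of 9.23 TPM in standard oxygen, 6.97 in acute and 10.8 in chronic hypoxia. Neither gene was called against standard oxygen in either fit.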

How the data were processed

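The values are TPM as the authors deposited them, in 3 tables that each hold a pair of groups, and each library had identical values in the 2 tables that hold it. FastQC, STAR and featureCounts are named, with the build GRCm38, per the submitters' processing notes; versions, annotation, strand setting and the step to TPM are not given in the sources used here. TPM is a share of the library, so a change in abundant genes moves all others, and depth is unknown. Symbols were matched by identifier for 34582 of 34866 genes, and positions come from GENCODE M21 (GRCm38).

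The 10 genes and the lists were chosen with earlier results of these data known. Each comparison was fitted on its 6 libraries with limma 3.58.1 in R 4.3.3 (lmFit, eBayes with trend, two-sided) on log2(TPM + 1), for genes with a mean of at least 1 TPM, with Benjamini-Hochberg adjustment across every gene tested. All fold changes are on that scale, and the steps were tested on simulated data. The simulated libraries had independent noise and no effect of the sample code, so that test says nothing on whether the code block suits these data. An exact permutation test of 3 against 3 cannot go below p = 0.1, so none was used for single genes. Other settings tried were pseudocounts of 0.1 and 5, no filter or a mean of at least 5 TPM, median-of-ratios rescaling, all 9 libraries in 1 fit, blocks by title number and by sample code, leaving out each replicate or the code Z libraries, and, chosen after seeing the data, averaging libraries X and Y. Code X is on replicate 1 of every group, Y on replicate 2 of both hypoxia groups and 3 of standard oxygen, and Z on the remaining ones. Deviations from the group means correlated between libraries of the same code, so the code was taken to pair the samples. The r was 0.375 to 0.535 in acute against standard oxygen, 0.387 to 0.534 in chronic against standard oxygen and 0.395 to 0.631 in chronic against acute hypoxia. It was taken across genes, which are not independent replicates. Z stood apart in every group and a pairing of X with Y was not tried. These r therefore cannot show that X pairs with X and Y with Y. All 10 genes are named. Of other lists, at most the 2 highest and 2 lowest called genes per comparison are named, and the genes most alike are the 3 with the highest r among genes with a mean of at least 5 TPM. Protein sequences were not used here.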

Additional observations from a re-analysis of the deposited data

How the results depend on the processing

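The number of the 10 genes called was 0 without a block in acute hypoxia against standard oxygen. It became 1 with a mean of at least 5 TPM or with rescaling, 3 with all 9 libraries in 1 fit, with the replicate block by sample code, with that block and all 9 libraries, or without the code Z libraries, and 2 with the code block and rescaling. In this order these settings called 0.0459, 0.191, 0.226, 0.71, 1.84, 2.95 and 0.519% of all genes tested, beside 0.0273% unblocked. In chronic hypoxia against standard oxygen the number of the 10 genes called was 2. It became 0 with the replicate block by title number and 3 with all 9 libraries in 1 fit. It became 5 with the replicate block by sample code or without the code Z libraries, 7 with the code block and all 9 libraries, and 0 with X and Y averaged. In the order named these settings called 0.00904, 6.9, 18.4, 21.1, 26.3 and 0.009% of all genes tested, beside 2.69% unblocked. In chronic against acute hypoxia the number of the 10 genes called was 0. It became 1 with a pseudocount of 0.1, with a mean of at least 5 TPM, with either replicate block or with the code block and rescaling, 3 with the code block and all 9 libraries, and 2 without the code Z libraries. These settings called 0.794, 0.997, 15.5 (either block), 9.81, 22.1 and 16.3% of all genes tested in this order, beside 0.695% unblocked. Leaving out 1 replicate at a time gave 0 to 2, 0 to 2 and 0 to 1 of the 10 genes in the 3 comparisons. Of all genes tested it called 0 to 0.302, 0.00903 to 4.74 and 0.00901 to 2.79%. The cause of these shifts was not tested. By title number the correlations of deviations were -0.465 to 0.395 in acute and -0.508 to 0.387 in chronic hypoxia against standard oxygen. The positive ones are of replicate 1, which is code X in each group, while numbers 2 and 3 set codes Y and Z against each other there.

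Over all genes, 3, 298 and 77 were called without a block. The counts were 0, 1 and 1724 with the title block, 78, 2039 and 1724 with the code block, 57, 1272 and 1088 with the code block and rescaling, 204, 2909 and 2450 with the code block and all 9 libraries, 25, 764 and 415 with all 9 libraries, 319, 2300 and 1788 without code Z, and 0, 1 and 0 with X and Y averaged. Rescaling gave 21 in acute hypoxia, no filter gave 120 and 7 in the last 2 comparisons, and leaving out 1 replicate gave 0 to 33 and 1 to 522 in the first 2. In the third it gave 1 to 90, except without chronic replicate 3, where 2.79% of the genes were called. Of the 298 genes 232 were higher and 66 lower, and of the 227 under rescaling 111 were higher and 116 lower. Between chronic and acute hypoxia 61 were higher and 16 lower, and under rescaling 29 and 44.

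Some estimates changed sign. Rescaling, with or without the code block, gave -0.01 for Epas1, -0.02 for Arnt and -0.11 for Hif1an in chronic hypoxia against standard oxygen, and -0.08 for Hif1a, -0.08 for Egln1 and -0.10 for Egln2 in chronic against acute hypoxia. Averaging X and Y gave -0.01 for Hif1an in acute hypoxia and -0.03 for Egln1 in chronic against acute hypoxia. In the latter comparison Hif1a was -0.04 without code Z and -0.04 without acute replicate 3, and Egln2 was -0.04 without acute replicate 1 and -0.02 without chronic replicate 2. Hif3a was -0.04 in acute hypoxia without acute replicate 3. Over all settings that left out 1 replicate, Hif3a in acute hypoxia lay between -0.04 and 0.55, and Hif1a and Egln2 in chronic against acute hypoxia each between -0.04 and 0.13.

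TPM keeps no depth, and no counting error was set for any gene. Hif3a had the lowest levels of the 10 genes (1.19 to 5.31 TPM), and 3 libraries a group limit the precision of every SD.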
